A study of Mus musculus with 50 samples.

Results

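The subject is a group of 9 mouse genes through which a cell can signal to or hold on to immune cells, followed in cultured developing oligodendrocytes, the glial cells that go on to make myelin. The genes were taken by symbol from a gene table of 39056 entries: the secreted or shed chemokines Cxcl10, Cxcl16, Ccl2, Ccl5 and Cx3cl1, the adhesion molecules Icam1 and Vcam1, the inhibitory ligand Cd274 (PD-L1) and the galectin Lgals9. All 9 symbols matched exactly 1 entry. Of them, 7 were among the 16460 genes that passed the filter on low counts, and Cxcl16 and Ccl2 were too low to be tested, with at most 9 and 12 counts in any of the 50 libraries.

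Bulk RNA-seq was done on C57BL/6 cells that were either wild type or Nrf2 -/-, the latter lacking both working copies of Nfe2l2, which encodes a transcription factor of the oxidative stress response. Oligodendrocyte progenitors had been immunopanned from the cortex of 6-day-old pups, grown through 2 passages and left to differentiate for 12 to 14 h. A tissue tag in the labels names whole brain instead of cortex. Cells were untreated or received interferon-γ (IFN-γ, a cytokine of activated T and NK cells) at 200 U/ml, each for 1, 8, 24 and 48 h, or received thapsigargin, which blocks calcium uptake into the endoplasmic reticulum and so causes ER stress, for 1 and 8 h at a dose labelled 200 uM. Each of the 20 groups of genotype, treatment and hour held 2 wild-type or 3 Nrf2 -/- libraries, with the same culture history in all. The submitters' design text gives 4 Nrf2 mutant replicates at each hour, and 3 in each group were analysed here. The comparisons ask how these genes respond to IFN-γ and to ER stress, and whether the response depends on Nrf2.

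As background, IFN-γ binds its receptor and activates JAK kinases, and the signal reaches GAS elements in promoters. It also induces IRF transcription factors, which bind ISRE elements and carry a later wave of transcription. CXCL10 and PD-L1 are classical targets of this pathway, ICAM-1 and VCAM-1 are best known from inflamed endothelium and are also targets of NF-κB, and fractalkine (CX3CL1) is known in the brain mainly as a neuronal signal to microglia.

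Promoter sequences from RefSeq (GRCm38.p6) were matched for 5 of the 9 genes. Those of Cxcl10, Icam1 and Lgals9 are shown because their motifs fall in the stretch ahead of the first exon. In the gene table these genes rose from near 0 counts with IFN-γ. Positions are counted from the transcription start, with -1 the base just before it. Capitals mark matches, on either strand, to GAS (TTCNNNGAA), to ISRE (GAAANNGAAA) and to the κB consensus.
Cxcl10 promoter, chr5:92348890-92349139, minus strand: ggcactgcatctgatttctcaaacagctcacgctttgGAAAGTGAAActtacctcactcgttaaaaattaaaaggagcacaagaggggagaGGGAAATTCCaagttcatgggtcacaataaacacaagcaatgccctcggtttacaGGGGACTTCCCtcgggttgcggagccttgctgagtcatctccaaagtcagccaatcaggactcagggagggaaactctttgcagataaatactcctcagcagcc
Icam1 promoter, chr9:21015690-21015939, plus strand: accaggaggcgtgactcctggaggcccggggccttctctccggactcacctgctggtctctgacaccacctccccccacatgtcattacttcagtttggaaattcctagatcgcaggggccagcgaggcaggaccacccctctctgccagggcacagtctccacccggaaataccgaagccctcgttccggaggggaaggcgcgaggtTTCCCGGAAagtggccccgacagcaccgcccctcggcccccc
Lgals9 promoter, chr11:78984947-78985174, minus strand: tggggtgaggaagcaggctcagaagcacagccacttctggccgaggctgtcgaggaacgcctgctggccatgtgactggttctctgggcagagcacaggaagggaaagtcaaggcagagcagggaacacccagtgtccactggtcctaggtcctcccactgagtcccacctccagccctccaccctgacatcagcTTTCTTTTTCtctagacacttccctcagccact
The Cxcl10 stretch of 250 bases held 1 ISRE match, at -213 to -204, and 3 matches to the κB consensus, at -159 to -150, -104 to -95 and -103 to -94, of which the last 2 overlap. The Icam1 stretch of 250 bases held 1 GAS match, at -42 to -34. The Lgals9 stretch of 228 bases leaves out the bases nearest the RefSeq start, which GENCODE M21 places in the first exon, and held 1 ISRE match on the opposite strand, at -55 to -46. The 250 bases before the start of Cx3cl1 and of Cd274, which partly overlap annotated exons and are not shown, held none of the 3 patterns. Of 32851 promoter windows of 250 bases, 7.02% held a GAS match, 2.98% an ISRE match and 7.25% a κB match. A match describes the letters in the window and no binding was measured.

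In the gene table's identifiers and GENCODE M21 coordinates (GRCm38), the 9 protein-coding genes lie on 6 chromosomes. Cxcl10 (ENSMUSG00000034855.13) lies at chr5:92346638-92348889 on the minus strand. Cxcl16 (ENSMUSG00000018920.11) lies at chr11:70453983-70459984 on the minus strand. Ccl2 (ENSMUSG00000035385.5) lies at chr11:82035571-82037453 on the plus strand. Ccl5 (ENSMUSG00000035042.2) lies at chr11:83525778-83530518 on the minus strand. Cx3cl1 (ENSMUSG00000031778.13) lies at chr8:94772009-94782427 on the plus strand. Icam1 (ENSMUSG00000037405.8) lies at chr9:21015985-21028817 on the plus strand. Vcam1 (ENSMUSG00000027962.14) lies at chr3:116109949-116129688 on the minus strand. Cd274 (ENSMUSG00000016496.7) lies at chr19:29367455-29388095 on the plus strand. Lgals9 (ENSMUSG00000001123.15) lies at chr11:78962974-78984946 on the minus strand. Cxcl16, Ccl2, Ccl5 and Lgals9 share chromosome 11. Exons of another gene cover 5.91% of the exon bases of Cxcl10 (Art3, on the opposite strand) and 0.69% of those of Vcam1.

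Libraries held 32252272 to 54657205 counts. Nfe2l2, the targeted gene, stood at 5.12 to 70.4 CPM (counts per 1000000 of the TMM-scaled library total, the level unit used throughout) in the 20 wild-type libraries and at 0.0973 to 0.859 CPM in 29 of 30 Nrf2 -/- libraries. The library labelled Nrf2 -/- untreated 8 h, replicate 3, had 7.62 CPM, so each Nrf2 -/- comparison at 8 h with untreated cells is reported with that library. Without it, 1 call among the 9 genes changed, that of Ccl5 with IFN-γ, given with that gene. In 3 further libraries, replicate 2 of the Nrf2 -/- groups at 8 h, the label fields named different genotypes. Their Nfe2l2 levels were 0.178, 0.218 and 0.669 CPM, within the range of the other mutant libraries. The cells had the markers of their label: Sox10 was 366 CPM or more in every library, and the summed level of 10 mature oligodendrocyte markers was 3904 to 5123 CPM at 1 h and 35294 to 38848 CPM at 48 h in untreated cells. With IFN-γ that sum was 15789 to 20489 CPM at 48 h. At 8 h it was 6451 to 8120 CPM in untreated cells, 3985 to 5086 CPM with IFN-γ and 2045 to 2788 CPM with thapsigargin, without overlap. The part of these differences in the levels of the 9 genes was not tested. Bulk values cannot tell fewer cells of a type apart from less RNA per cell. Nothing in the labels states whether replicates came from separate cultures or animals, so the p-values reflect the variation among these samples, and that may be technical.

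In the gene table, Icam1, Cxcl10, Lgals9 and, more weakly, Vcam1 went from near 0 to measurable levels with IFN-γ. Cd274, with 7 to 43 counts in untreated libraries, rose as well, and each gene had its own timing. IFN-γ raised Cx3cl1 at 8 and 24 h in both genotypes and lowered Ccl5 at 8 h. The Ccl5 fall rested on few counts, 5 against 35 in wild type and 10 against 31 in Nrf2 -/- cells. The Vcam1 calls and these Ccl5 calls were lost with the transcript table summed per gene. Of the 7 tested genes, thapsigargin raised Cx3cl1 and lowered Ccl5 at 8 h in the gene table, and no other was called. Cxcl10, Icam1, Vcam1 and Lgals9 were near 0 with and without thapsigargin and could hardly be called. No gene of the group differed between the genotypes past the threshold. A gene was called at a Benjamini-Hochberg adjusted p below 0.05 over all 16460 genes tested with edgeR's quasi-likelihood test. In wild type, IFN-γ changed 2 of the 7 tested genes at 1 h, 7 at 8 h, 6 at 24 h and 5 at 48 h, against 2.10%, 26.4%, 43.2% and 43.1% of all tested genes. It changed 2, 7, 7 and 6 in Nrf2 -/- cells, against 2.21%, 30.7%, 47.3% and 45.4%. Cxcl10, Icam1, Vcam1 and Lgals9 passed the filter only through their IFN-γ groups, so they had to differ, and these counts support nothing beyond the single genes. The median log2 fold change of all tested genes in these 8 comparisons lay between -0.02 and 0.

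**Figure D1:**
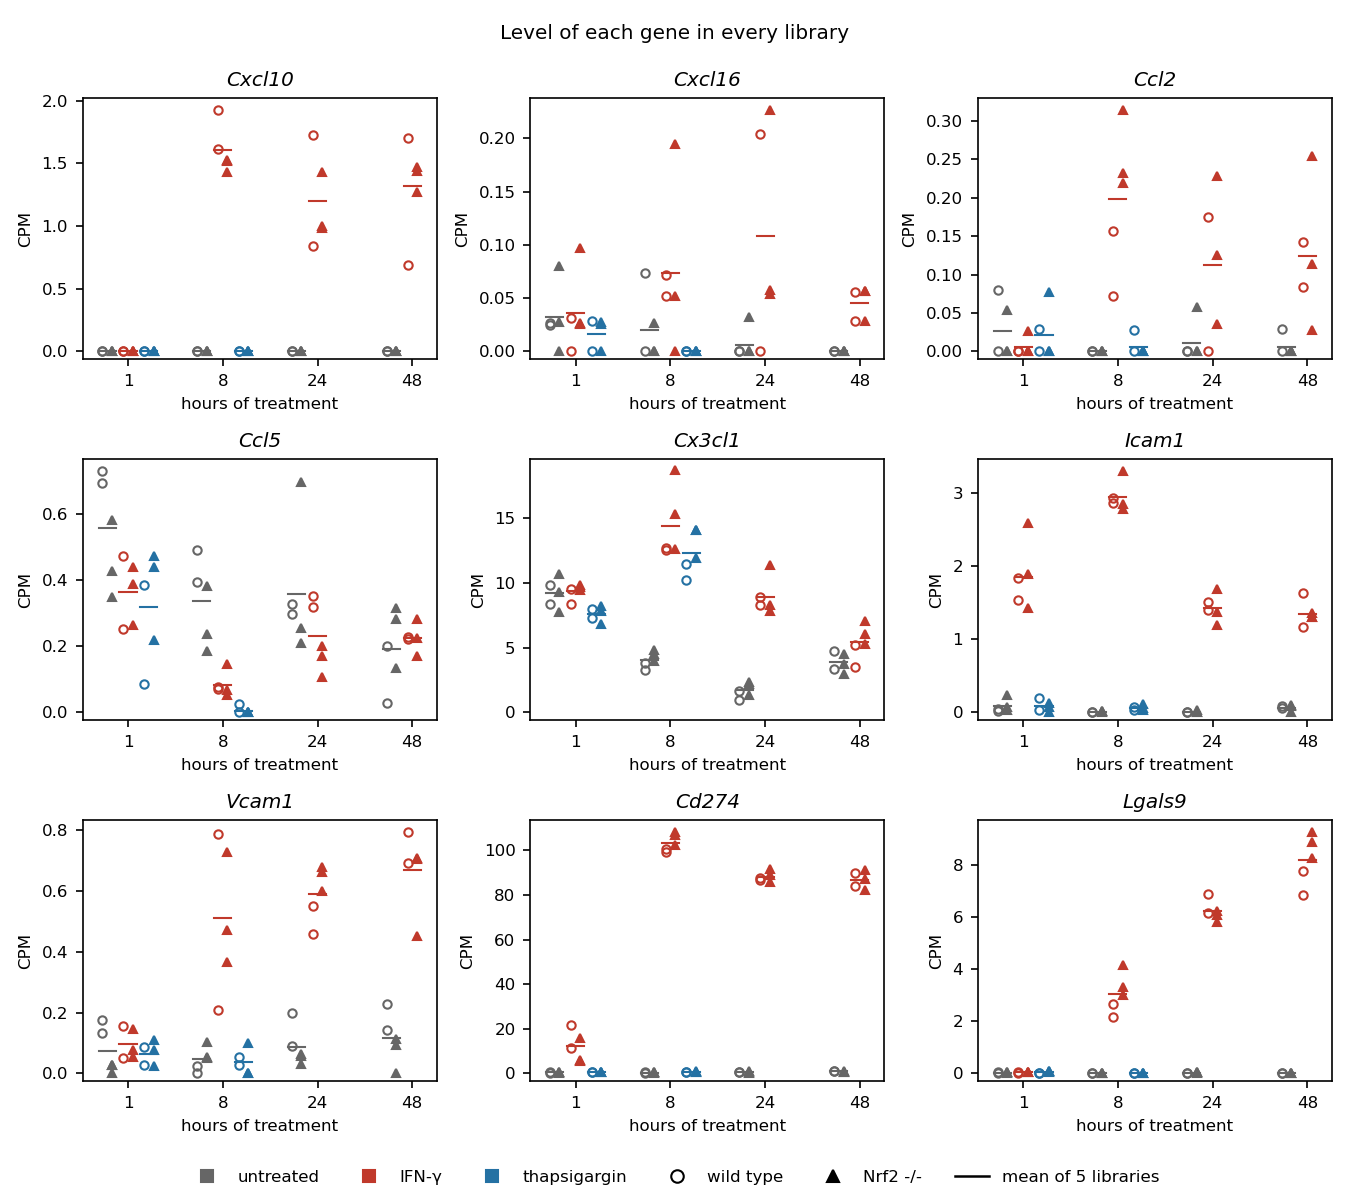
Level of each of the 9 genes (CPM, linear axis, own scale per panel) in all 50 libraries by hour, with treatment as colour, genotype as symbol and a bar at the mean of the 5 libraries of both genotypes. Cd274, Icam1, Lgals9 and Cxcl10 with IFN-γ lie apart from untreated at 8, 24 and 48 h, Cd274 and Icam1 already at 1 h, and Cx3cl1 rises with both agents at 8 h.

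Among the chemokines, Cxcl10, the ligand of CXCR3 that draws activated T cells, had no count in any of the 30 untreated and thapsigargin libraries and none at 1 h of IFN-γ. At 8 h of IFN-γ the wild-type libraries had 45 and 74 counts (1.61 and 1.92 CPM) and the Nrf2 -/- libraries 58, 59 and 46 counts (1.52, 1.43 and 1.53 CPM). At 24 h the wild-type values were 29 and 64 counts (0.843 and 1.73 CPM) and the Nrf2 -/- values 80, 39 and 35 counts (1.43, 0.981 and 1.00 CPM). At 48 h they were 25 and 60 counts (0.693 and 1.70 CPM) in wild type and 45, 51 and 52 counts (1.27, 1.44 and 1.47 CPM) in Nrf2 -/- cells. All 15 of these libraries lay above every untreated one. Wild type lay above Nrf2 -/- at 8 h, and the genotypes overlapped at 24 and 48 h. With 3 counts over the untreated group standing in for 0, Cxcl10 was at least 47.4-fold higher at 8 h, 27.8-fold at 24 h and 27.8-fold at 48 h in wild type. It was at least 57.0-fold, 39-fold and 45.2-fold higher at these hours in Nrf2 -/- cells. Against thapsigargin at 8 h, IFN-γ gave at least 43.3-fold (wild type) and 49.1-fold (Nrf2 -/-) more. Each at-least value here and below sets the group at 0 to 3 counts and leaves out the counting error of the other group. Exact 95% lower limits were lower, for example 37.9 for Cxcl10 and 2.04 for Ccl2 at 8 h of IFN-γ in wild type. Ratios given with an interval cover counting error only. The kallisto transcript table holds 769 estimated counts, against 762 in the gene table, over the 20 IFN-γ libraries and 92.3% of them fell on the coding transcript Cxcl10-201.

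Cx3cl1, which encodes a chemokine anchored in the membrane or shed by the proteases ADAM10 and ADAM17, was the highest chemokine of the group and was counted in all 50 libraries. In untreated wild type it stood at 8.34 and 9.85 CPM at 1 h, 3.80 and 3.27 at 8 h, 1.63 and 0.987 at 24 h, and 3.36 and 4.76 at 48 h. The untreated Nrf2 -/- libraries had 7.76, 10.7 and 9.31 CPM at 1 h, 3.96, 4.82 and 4.49 at 8 h, 2.39, 2.23 and 1.37 at 24 h, and 3.77, 2.96 and 4.50 at 48 h. Untreated cells were thus highest at 1 h, with no overlap with a later hour, and lowest at 24 h in both genotypes, while 8 and 48 h overlapped.

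With IFN-γ the wild-type levels of Cx3cl1 were 9.56 and 8.34 CPM at 1 h, 12.6 and 12.7 at 8 h, 8.29 and 8.91 at 24 h, and 3.49 and 5.22 at 48 h. The Nrf2 -/- levels were 9.45, 9.66 and 9.85 CPM at 1 h, 15.3, 18.7 and 12.6 at 8 h, 11.4, 8.28 and 7.86 at 24 h, and 6.08, 7.07 and 5.32 at 48 h. Treated libraries lay above untreated ones at 8 and 24 h in both genotypes, and at 48 h in Nrf2 -/- cells. The log2 fold change in wild type was -0.02 at 1 h, 1.84 ± 0.22 (SE, n = 2 against 2 libraries; edgeR adjusted p = 6.51e-09) at 8 h, 2.70 ± 0.25 (edgeR adjusted p = 1.2e-11) at 24 h and 0.10 ± 0.23 (edgeR adjusted p = 0.761) at 48 h. In Nrf2 -/- cells it was 0.06 at 1 h, 1.82 ± 0.17 (n = 3 against 3; edgeR adjusted p = 1.87e-11), 2.21 ± 0.19 (1.04e-12) and 0.71 ± 0.18 (0.0015) at 8, 24 and 48 h. The genotypes' 48 h responses differed by 0.61 ± 0.29 in log2, which did not pass (edgeR adjusted p = 0.594). The fold was larger at 24 h than at 8 h, while the treated level was higher at 8 h and the untreated level lower at 24 h.

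Thapsigargin gave Cx3cl1 8.01 and 7.33 CPM (wild type) and 6.82, 7.81 and 8.20 CPM (Nrf2 -/-) at 1 h. At 8 h it gave 10.3 and 11.5 CPM in wild type and 14.1, 14.1 and 11.9 CPM in Nrf2 -/- cells. All 5 libraries at 8 h lay above the untreated ones, and the log2 fold change was 1.62 ± 0.22 (edgeR adjusted p = 3.39e-08) in wild type and 1.59 ± 0.17 (edgeR adjusted p = 2.06e-10) in Nrf2 -/- cells. Thapsigargin called 2 of the 7 tested genes at 8 h in each genotype, Cx3cl1 higher and Ccl5 lower, against 55.5% of all tested genes in wild type and 60.0% in Nrf2 -/- cells. Cxcl10, Icam1, Vcam1 and Lgals9 had at most 4 counts in any untreated or thapsigargin library at 8 h and could hardly be called. The count out of 7 is therefore no result about the group. IFN-γ minus thapsigargin at 8 h was 0.22 in log2 for Cx3cl1 in both genotypes, with 95% intervals of -0.19 to 0.62 (wild type) and -0.10 to 0.55 (Nrf2 -/-). In that direct comparison 55.2% (wild type) and 60.7% (Nrf2 -/-) of all tested genes were called, 27.6% and 30.4% as higher with IFN-γ. Cxcl10, Icam1, Vcam1 and Lgals9 had to be higher there, having passed the filter only through IFN-γ groups. Of the 7 genes, 5 (wild type) and 6 (Nrf2 -/-) were higher with IFN-γ, counts that support nothing beyond the single genes. Of these, the Vcam1 call in wild type was lost without IFN-γ replicate 1 (edgeR adjusted p = 0.0573), and the Ccl5 call in Nrf2 -/- cells, 10 counts against 0 and so at least 3.01-fold higher, without the 3 libraries of conflicting labels (edgeR adjusted p = 0.0671).

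Markers of neurons, the usual source of fractalkine in brain, moved in the same libraries. The sum of 10 neuron markers was 87.2 to 97.9 CPM in untreated cells at 8 h, 391 to 450 CPM with IFN-γ and 138 to 160 CPM with thapsigargin. Of the 8 markers tested, 5 rose with IFN-γ at 8 h in wild type and 4 in Nrf2 -/- cells, and 6 rose and 1 fell with thapsigargin in each. At 48 h, where Cx3cl1 in wild type overlapped its untreated level, the sum was 131 to 154 CPM without and 361 to 438 CPM with IFN-γ. Tubb3, which alone reached 37.2 to 425 CPM, makes up most of the sum, while Rbfox3 stayed at or below 0.913 CPM, Slc17a7 had no count in 21 libraries and Stmn2 none in 26. The part of these markers in the Cx3cl1 levels was not tested.

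Ccl5, a chemokine that draws T cells and monocytes, was low throughout, with 493 counts over 50 libraries. In untreated wild type it had 29 and 26 counts at 1 h, 19 and 16 at 8 h, 11 and 9 at 24 h, and 7 and 1 at 48 h. The untreated Nrf2 -/- libraries had 21, 14 and 16 counts at 1 h, 7, 15 and 9 at 8 h, 8, 24 and 7 at 24 h, and 10, 4 and 10 at 48 h. Wild type thus had fewer counts at each later hour. The Nrf2 -/- libraries at 48 h lay below those at 1 h, while the hours next to each other overlapped in CPM. With IFN-γ, counts at 1, 8, 24 and 48 h were 19 and 8, 2 and 3, 11 and 13, and 8 and 8 in wild type. Those of Nrf2 -/- cells were 15, 18 and 10, then 2, 6 and 2, then 6, 8 and 6, and then 6, 8 and 10. At 8 h the treated libraries lay below the untreated ones in both genotypes. The log2 fold change at 8 h was -2.50 ± 0.71 (SE; edgeR adjusted p = 0.00692) in wild type and -1.53 ± 0.59 (edgeR adjusted p = 0.045) in Nrf2 -/- cells, and -1.31 ± 0.50 (edgeR adjusted p = 0.03) at 24 h in Nrf2 -/- cells. The wild-type call was lost without either IFN-γ library (adjusted p = 0.0531 without replicate 1 and 0.0627 without replicate 2). The Nrf2 -/- call at 8 h was lost without the untreated replicate 3 that has Nfe2l2 reads (-1.62, adjusted p = 0.0607), without the untreated replicate 2 (0.206), without IFN-γ replicate 1 (0.168) or replicate 3 (0.118), and without the 3 libraries of conflicting labels (-1.79, adjusted p = 0.118). The call at 24 h was lost without the untreated replicate 2, which holds the 24 counts (-0.57, adjusted p = 0.463), or without IFN-γ replicate 1 (0.148). With kallisto counts summed per gene the calls were lost as well, with log2 fold changes of -1.57 (adjusted p = 0.0743) in wild type at 8 h, and -1.32 (0.0691) at 8 h and -1.03 (0.0975) at 24 h in Nrf2 -/- cells. With protein-coding transcripts only, the wild-type call held (-2.50, adjusted p = 0.023) and the Nrf2 -/- calls were lost, at -1.52 (0.0844) at 8 h and -1.03 (0.183) at 24 h.

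With thapsigargin Ccl5 had 14 and 3 counts at 1 h and 0 and 1 at 8 h in wild type, and 18, 17 and 8 at 1 h and 0 in all 3 libraries at 8 h in Nrf2 -/- cells. At 8 h, 1 count stood against 35 untreated counts in wild type, a ratio of 0.0312 (95% interval 0.000769 to 0.186), and Ccl5 was at least 8.90-fold lower in Nrf2 -/- cells. The transcript table differs: summed over the gene's transcripts, the 5 thapsigargin libraries at 8 h had 3 to 27 estimated counts and the untreated ones 14 to 23. There the log2 fold changes were -0.56 (adjusted p = 0.446) and -0.87 (adjusted p = 0.169). With protein-coding transcripts only they were -1.2 (adjusted p = 0.149) in wild type and -2.03 (adjusted p = 0.0145) in Nrf2 -/- cells, so that the gene-table call was lost in wild type and held in Nrf2 -/- cells. The Nrf2 -/- call in the gene table was also lost when only the groups compared were fitted. At 1 h thapsigargin called none of the 7 tested genes in edgeR, against 9.03% (wild type) and 9.29% (Nrf2 -/-) of all tested genes. Cxcl10, Icam1, Vcam1 and Lgals9 had at most 9 counts in any untreated or thapsigargin library at that hour and could hardly be called. At an unadjusted p under 0.05, 1 gene (Ccl5) stood out in wild type and none in Nrf2 -/- cells, and DESeq2 called none in either. Without replicate 1 of the wild-type thapsigargin group at 1 h, Ccl5 was called.

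Ccl2, a ligand of CCR2 that draws monocytes, had 80 of its 93 counts in the 20 IFN-γ libraries. Untreated and thapsigargin libraries had 0 to 3 counts each. With IFN-γ at 8 h there were 2 and 6 counts in wild type and 12, 9 and 7 in Nrf2 -/- cells, against 0 in all 5 untreated libraries. At 24 h the counts were 6 and 0 and then 2, 5 and 8, and at 48 h 3 and 5 and then 4, 1 and 9. All 5 treated libraries lay above the untreated ones at 8 h. Ccl2 was at least 3.18-fold higher in wild type and at least 9.79-fold higher in Nrf2 -/- cells at 8 h, and at least 4.27-fold higher at 48 h in Nrf2 -/- cells. The ratio was 5.71 (95% interval 1.33 to 51.4) at 24 h in Nrf2 -/- cells and 7.84 (1.05 to 348) at 48 h in wild type. When all genes with a count were tested in place of the filtered ones, it was called at 8 and 48 h in Nrf2 -/- cells and not in wild type, and no difference between the genotypes in its response was called.

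Cxcl16, the ligand of CXCR6, was too low to measure in the gene table, with 64 counts in all and 0 to 9 in a library. The group with most counts was Nrf2 -/- with IFN-γ at 24 h, with 14 counts over 3 libraries against 1 untreated, a ratio of 10.7 (95% interval 1.62 to 450). The transcript table holds far more for it, 15 to 59 estimated counts in every library, 89.0% of them on the coding transcript Cxcl16-201 in untreated cells. Over groups these sum to 726 in 20 untreated, 742 in 20 IFN-γ and 284 in 10 thapsigargin libraries. No response was called there, with log2 fold changes between -0.62 and 0.27. Exons of Zmynd15 cover 18.3% of the exon bases of Cxcl16, and the strand setting of the counting is not given, so reads of overlapping genes cannot be told apart.

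Microglia are a known source of such chemokines, and 9 of 12 microglia and macrophage markers were at or near 0. Aif1, C1qa and C1qb had no count in any library, Trem2 none in 49, Tmem119 none in 47, Cx3cr1 none in 42, Itgam none in 41 and Csf1r none in 37. Ptprc stayed at or below 0.218 CPM. The 3 markers that passed the filter carried nearly all of the summed level, and of these P2ry12 stood at 1.04 to 7.62 CPM and Cd68 at 2.57 to 8.15 CPM, counted in every library. The sum over the 12 was 19.3 to 23.5 CPM in untreated cells, 23.5 to 26.3 CPM with IFN-γ and 11.5 to 14.8 CPM with thapsigargin at 8 h. Of the 3 markers tested, P2ry12 alone was called at 8 h of IFN-γ, higher by 1.31 ± 0.20 (edgeR adjusted p = 9.14e-07) in wild type and by 1.45 ± 0.17 (edgeR adjusted p = 2.56e-09) in Nrf2 -/- cells in log2. Their part in the levels of the chemokines was not tested.

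Of the adhesion molecules, Icam1, the ligand of the leukocyte integrin LFA-1, was the earliest gene of the group to rise together with Cd274. Untreated libraries had 0 to 9 counts. At 1 h of IFN-γ wild type had 74 and 49 counts (1.84 and 1.54 CPM) and Nrf2 -/- cells 73, 59 and 98 (1.90, 1.44 and 2.59 CPM). At 8 h it peaked, with 80 and 113 counts (2.86 and 2.94 CPM) and 109, 136 and 84 counts (2.85, 3.30 and 2.79 CPM). Lower levels followed at 24 h, 1.40 and 1.51 CPM in wild type and 1.38, 1.69 and 1.2 CPM in Nrf2 -/- cells. At 48 h they were 1.64 and 1.16 CPM and then 1.36, 1.3 and 1.3 CPM. Every treated library lay above every untreated one, and the 5 libraries at 8 h lay above all those of 1, 24 and 48 h. In wild type the ratio to untreated was 43.9 (95% interval 14.7 to 216) at 1 h, and Icam1 was at least 76.8-fold higher at 8 h and 31.1-fold at 24 h. The log2 fold change at 48 h was 4.23 ± 0.59 (edgeR adjusted p = 2.47e-07). In Nrf2 -/- cells the log2 fold change was 4.07 ± 0.42 (edgeR adjusted p = 4.86e-09) at 1 h and 4.34 ± 0.51 (edgeR adjusted p = 4.24e-09) at 48 h, with ratios of 172.5 (47.4 to 1430) at 8 h and 141.5 (25.1 to 5618) at 24 h. Thapsigargin gave 1 and 3 counts (wild type) and 4, 2 and 1 (Nrf2 -/-) at 8 h, which was not called (edgeR adjusted p = 0.065 and 0.144).

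The size of the Icam1 change depends on the counting. Kallisto gave the gene 1281 estimated counts over the 20 untreated libraries, where the gene table has 30, and 98.4% of them lay on the transcript Icam1-202, annotated as a retained intron. The coding transcript Icam1-201 went from 21.1 estimated counts in untreated libraries to 1238 with IFN-γ and 29 with thapsigargin (10 libraries), while Icam1-202 stood at 1260 and 1327. Summed over both transcripts, the IFN-γ response was called at all 4 hours in both genotypes, with log2 fold changes of 0.59 to 1.52, and thapsigargin at 8 h was called lower in Nrf2 -/- cells (-0.54, adjusted p = 0.0282). For protein-coding transcripts only, the IFN-γ responses were called likewise, and Icam1 was called higher with thapsigargin at 8 h in both genotypes (adjusted p = 0.0306 and 0.0208), on 2 to 4 estimated counts in each treated library. Exons of the antisense gene Gm47079 cover 11.7% of the exon bases of Icam1.

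Vcam1, the ligand of the integrin VLA-4, was lower and later. Untreated libraries had 0 to 8 counts and libraries at 1 h of IFN-γ 2 to 6. At 8 h there were 22 and 8 counts (0.787 and 0.208 CPM) in wild type and 18, 30 and 11 (0.471, 0.728 and 0.365 CPM) in Nrf2 -/- cells. At 24 h the counts were 19 and 17 (0.552 and 0.459 CPM) and 37, 27 and 21 (0.661, 0.679 and 0.600 CPM). At 48 h they were 25 and 28 (0.693 and 0.794 CPM) and 25, 16 and 25 (0.707, 0.452 and 0.707 CPM). Treated libraries lay above the untreated ones of the same genotype at these 3 hours, and the hours overlapped with each other in CPM. At 1 h treated libraries lay above untreated ones in Nrf2 -/- cells only, with 11 counts against 2, a ratio of 5.32 (95% interval 1.16 to 49.4).

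In wild type the ratio of Vcam1 at 8 h was 35.8 (95% interval 5.96 to 1462), and the log2 fold change was 1.81 ± 0.65 (edgeR adjusted p = 0.0217) at 24 h and 1.98 ± 0.58 (edgeR adjusted p = 0.0057) at 48 h. In Nrf2 -/- cells it was 2.87 ± 0.58 (edgeR adjusted p = 9.81e-05), 3.60 ± 0.61 (4.04e-06) and 3.06 ± 0.59 (3.4e-05) at 8, 24 and 48 h. The wild-type call at 24 h was lost without IFN-γ replicate 1 (adjusted p = 0.0913) or untreated replicate 1 (0.186), and that at 48 h without untreated replicate 2 (0.0882). The wild-type call at 8 h was lost when only the groups compared were fitted. All 6 calls were lost with kallisto counts summed per gene, with log2 fold changes from 0.00 to 0.61 and adjusted p from 0.159 to 1. There 88.1% of the 1134 untreated estimated counts lay on the retained-intron transcript Vcam1-204. The coding transcript Vcam1-201 had 48.3 estimated counts over the 20 untreated and 288 over the 20 IFN-γ libraries. With protein-coding transcripts only, the Nrf2 -/- calls and the wild-type call at 8 h held, and those at 24 h (log2 fold change 1.30, adjusted p = 0.104) and 48 h (1.18, 0.0991) in wild type did not.

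Of the markers of endothelial cells, where both adhesion molecules are best known, some were at or near 0 and others were not. Cldn5 had no count in any library and Cdh5 none in 48. Kdr and Pecam1 had counts in every library, at 0.372 to 4.66 CPM and at 0.0286 to 0.96 CPM. The 12 endothelial, mural and fibroblast markers summed to 1.30 to 1.81 CPM in untreated cells at 8 h, 3.75 to 5.23 CPM with IFN-γ and 2.21 to 3.25 CPM with thapsigargin, and to 3.74 to 5.55 CPM in untreated cells at 48 h. The part of this sum in the Icam1 and Vcam1 levels was not tested.

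**Figure D2:**
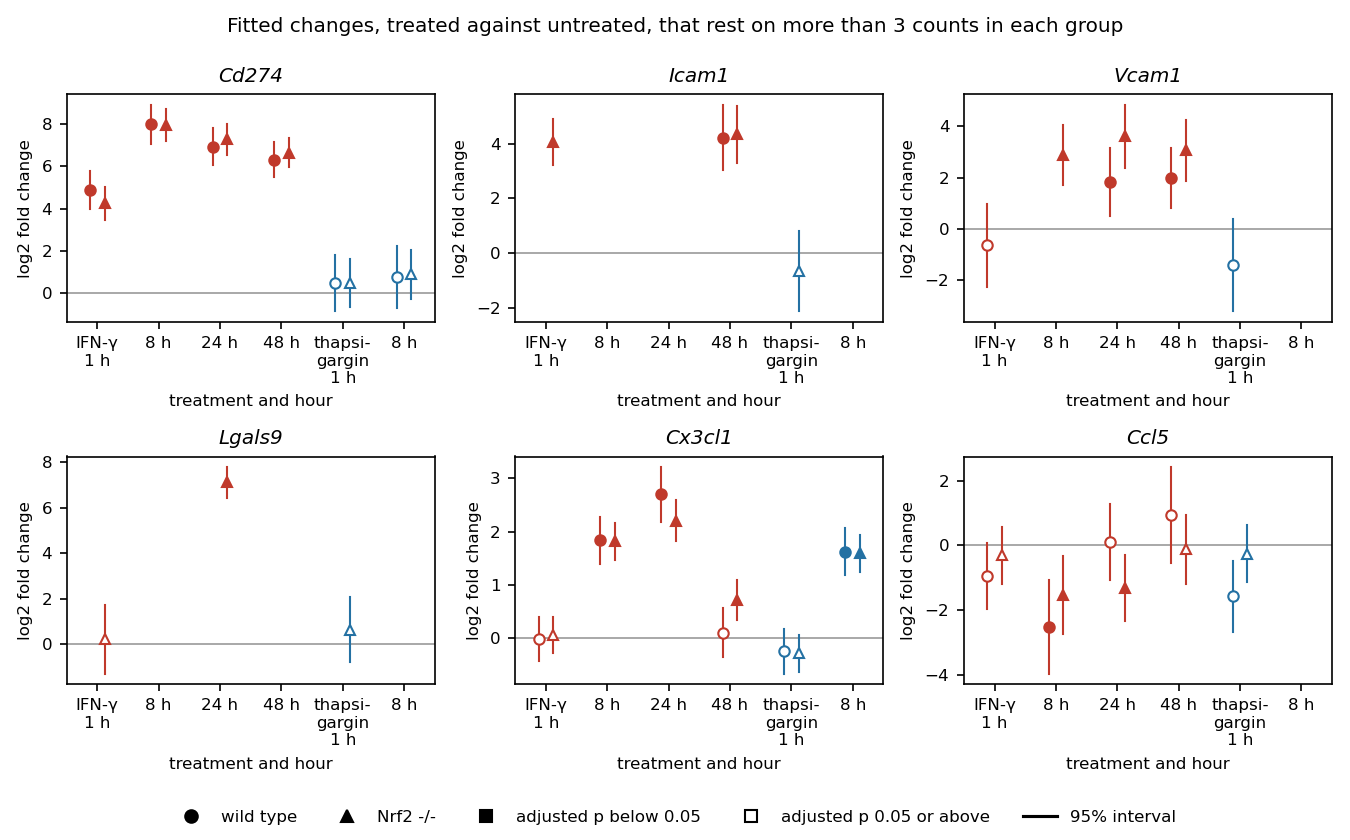
Fitted log2 fold change of treated over untreated cells (points, with 95% intervals; circles wild type, triangles Nrf2 -/-, filled where the adjusted p was below 0.05) for 6 genes by treatment and hour. Comparisons with 3 or fewer counts in a group have no point. With IFN-γ Cd274 stays above 6 from 8 h on, and Cx3cl1 is at 0.10 (wild type) and 0.71 (Nrf2 -/-) at 48 h.

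Cd274 encodes PD-L1, the ligand that restrains T cells through the receptor PD-1, and was the most abundant gene of the group with IFN-γ. Untreated libraries had 0.208 to 1.22 CPM. After 1 h of IFN-γ the levels were 11.4 and 21.5 CPM in wild type and 5.48, 6.11 and 16 CPM in Nrf2 -/- cells. At 8 h they were 101 and 99.2 CPM and then 108, 107 and 102 CPM, at 24 h 87.5 and 86.8 and then 91.7, 85.8 and 88.9, and at 48 h 83.9 and 89.6 and then 91.1, 87.0 and 82.1. All treated libraries lay above all untreated ones, libraries at 1 h were spread widely, and those at 8 h lay above those at 24 and 48 h. In wild type the log2 fold change was 4.87 ± 0.44 (edgeR adjusted p = 1.4e-09) at 1 h, 7.99 ± 0.45 (7.26e-16) at 8 h, 6.92 ± 0.42 (4.96e-15) at 24 h and 6.31 ± 0.40 (1.1e-14) at 48 h. In Nrf2 -/- cells it was 4.26 ± 0.38 (9.84e-10), 7.94 ± 0.36 (1.97e-18), 7.27 ± 0.36 (9.38e-18) and 6.64 ± 0.34 (2.55e-17). The Nrf2 -/- call at 1 h was lost when only the groups compared were fitted (adjusted p = 0.0785).

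With thapsigargin Cd274 stood at 0.741 and 0.804 CPM (wild type) and 0.577, 0.850 and 0.572 CPM (Nrf2 -/-) at 1 h, overlapping untreated cells in Nrf2 -/-. At 8 h it stood at 0.652 and 0.671 CPM and then 0.582, 0.960 and 0.859 CPM, and all 5 libraries lay above the 5 untreated ones of that hour (0.213 to 0.552 CPM). The difference was not called, with log2 fold changes at 8 h of 0.75 (edgeR adjusted p = 0.392) and 0.90 (edgeR adjusted p = 0.178). Their 95% intervals ran from -0.71 to 2.22 and from -0.26 to 2.06, and DESeq2 called the Nrf2 -/- value. With kallisto the untreated level was higher, 37.7 to 93.8 estimated counts in a library where the gene table has 7 to 43, and the IFN-γ log2 fold changes were smaller, 3.35 at 1 h and 5.87 at 8 h in wild type. Exons of the antisense gene AC119228.1 cover 14.1% of the exon bases of Cd274.

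Lgals9 encodes galectin-9, a sugar-binding protein that binds the inhibitory receptor TIM-3 of T cells, and its levels with IFN-γ were highest at 48 h. Untreated and 1 h IFN-γ libraries had 0 to 2 counts each. At 8 h of IFN-γ there were 61 and 102 counts (2.18 and 2.65 CPM) in wild type and 159, 137 and 90 (4.16, 3.33 and 2.99 CPM) in Nrf2 -/- cells. At 24 h the levels were 6.13 and 6.89 CPM and then 5.79, 6.24 and 6.06 CPM. At 48 h they were 6.85 and 7.74 CPM and then 8.26, 8.85 and 9.25 CPM. The 5 libraries at each hour lay above those of the hour before, except that 1 wild-type library at 48 h (6.85 CPM) lay just below 1 at 24 h (6.89 CPM). The Nrf2 -/- libraries lay above the wild-type ones at 8 and 48 h and below or between them at 24 h. In the gene table, Lgals9 in wild type was at least 64.9-fold higher at 8 h and 139-fold at 24 h, and the ratio at 48 h was 509.5 (95% interval 91.0 to 20160). In Nrf2 -/- cells the ratio was 404.8 (72.2 to 16030) at 8 h and 853 (153 to 33740) at 48 h, and the log2 fold change at 24 h was 7.11 ± 0.34 (edgeR adjusted p = 1.14e-19). With thapsigargin there were 1 to 3 counts in each library at 1 h and 1 count over the 5 libraries at 8 h. With kallisto counts summed per gene, the untreated group at 8 h held 4 estimated counts in each genotype. The IFN-γ log2 fold change at 8 h was then 5.47 (edgeR adjusted p = 1.57e-11) in wild type and 6.53 (3.33e-16) in Nrf2 -/- cells. The wild-type value lies below the bound from the gene table.

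Levels were also taken per kilobase of all annotated exon bases, which gives only a rough comparison between genes. These bases include retained-intron transcripts, with 8870 bases for Vcam1 and 4360 for Icam1, and the order depends on them. The order at 8 h of IFN-γ in wild type was Cd274 (27.6 ± 0.272 CPM per kb, SD, n = 2), Cx3cl1 (3.21 ± 0.0237), Lgals9 (1.13 ± 0.155), Cxcl10 (0.785 ± 0.0987) and Icam1 (0.665 ± 0.0124). Ccl2 (0.100 ± 0.0525), Ccl5 (0.0778 ± 0.0047), Vcam1 (0.0560 ± 0.0462) and Cxcl16 (0.0204 ± 0.0046) followed, and the first 3 of these did not differ beyond their spread. Cxcl10 and Icam1 changed places in Nrf2 -/- cells, at 0.663 ± 0.0231 and 0.683 ± 0.0642 (SD, n = 3), and did not differ beyond their spread there. At 48 h Lgals9 (3.41 ± 0.295 in wild type, 4.11 ± 0.232 in Nrf2 -/- cells) stood above Cx3cl1 (1.11 ± 0.310 and 1.57 ± 0.224), the reverse of 8 h.

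The IFN-γ response at 48 h was compared with that at 8 h within each genotype. In wild type 3 of the 7 tested genes were called, against 29.9% of all tested genes, and in Nrf2 -/- cells 1, against 27.1%. The response of Cx3cl1 was smaller at 48 h by both genotypes' tests, with a difference of -1.74 ± 0.31 in log2 (edgeR adjusted p = 4.02e-05) in wild type and -1.11 ± 0.25 (edgeR adjusted p = 0.000723) in Nrf2 -/- cells. Ccl5 in wild type differed by 3.45 ± 1.03 (edgeR adjusted p = 0.00995), being lowered at 8 h and not at 48 h. That call was lost without the untreated 48 h replicate 2, which has 1 count (2.66). It was also lost with kallisto counts summed per gene (2.24, edgeR adjusted p = 0.0722) and held with protein-coding transcripts only (3.11, edgeR adjusted p = 0.0465). The Icam1 response was smaller at 48 h in wild type (edgeR adjusted p = 0.0204), a difference for which no size is given because untreated cells at 8 h had no count. That call was lost without either untreated 8 h library (0.0775 and 0.0782) or without untreated 48 h replicate 1 (0.0775). For Cd274 the difference was -1.67 (edgeR adjusted p = 0.0746) and -1.30 (0.115), and DESeq2 called both. Its untreated level was 0.213 to 0.552 CPM at 8 h and 0.816 to 1.22 CPM at 48 h, without overlap. The treated level was 99.2 to 108 CPM at 8 h and 82.1 to 91.1 CPM at 48 h. In proportion, the untreated level thus changed more than the treated one.

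In untreated cells 48 h was compared with 1 h to see which of these genes move as the cells mature in culture. In wild type 2 of the 7 tested genes fell, against 54.7% of all tested genes called, and in Nrf2 -/- cells 1 fell, against 61.6%. Cx3cl1 fell by 1.16 ± 0.22 (edgeR adjusted p = 1.69e-05) in wild type and by 1.30 ± 0.18 (edgeR adjusted p = 4.99e-08) in Nrf2 -/- cells on the log2 scale. Ccl5 fell by 2.60 ± 0.62 (edgeR adjusted p = 0.000478) in wild type and had a change of -0.86 (edgeR adjusted p = 0.113) in Nrf2 -/- cells. The other 5 tested genes were not called in either. Cxcl10 had no count in untreated libraries, and Icam1, Vcam1 and Lgals9 at most 9, 8 and 2. Such genes could hardly be called, so the counts out of 7 are no result about the group. For Cd274 the lowest 48 h library (0.816 CPM) exceeded the highest 1 h library (0.729 CPM). DESeq2 called this gene in Nrf2 -/- cells. With kallisto counts summed per gene its log2 changes were 0.34 (wild type) and -0.04 (Nrf2 -/-), neither called.

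The genotypes were compared over the hours of each treatment and in each response. None of the 7 tested genes was called by edgeR between Nrf2 -/- and wild type in untreated, IFN-γ or thapsigargin cells, against 0.0243%, 0.0547% and 0.510% of all tested genes. At an unadjusted p under 0.05 there were 0, 1 and 0 of the 7, the 1 being Cx3cl1 with IFN-γ (0.25 in log2 higher in Nrf2 -/- cells, 95% interval 0.06 to 0.44, edgeR adjusted p = 0.38). DESeq2 called none of them in the 3 comparisons. For Cd274 with IFN-γ the difference was -0.18 (95% interval -0.44 to 0.08), for Icam1 0.04 (-0.30 to 0.37), for Vcam1 0.05 (-0.54 to 0.64), for Lgals9 0.37 (-0.14 to 0.88) and for Ccl5 -0.21 (-0.88 to 0.46), in log2 of Nrf2 -/- over wild type.

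The difference between genotypes in the response was called by edgeR for none of the 7 genes in any of 6 comparisons (IFN-γ at 1, 8, 24 and 48 h, thapsigargin at 1 and 8 h), against 0% of all tested genes in each. At an unadjusted p under 0.05 there was 1 of the 7 in 4 of the 6: Vcam1 with IFN-γ at 1 h and with thapsigargin at 1 h, Lgals9 with IFN-γ at 24 h and Cx3cl1 with IFN-γ at 48 h. DESeq2 called none. The interval for Cd274 at 8 h of IFN-γ ran from -1.56 to 1.48 and that for Cx3cl1 from -0.57 to 0.53, in log2 of Nrf2 -/- over wild type, so differences within those limits could not be seen here.

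**Figure D3:**
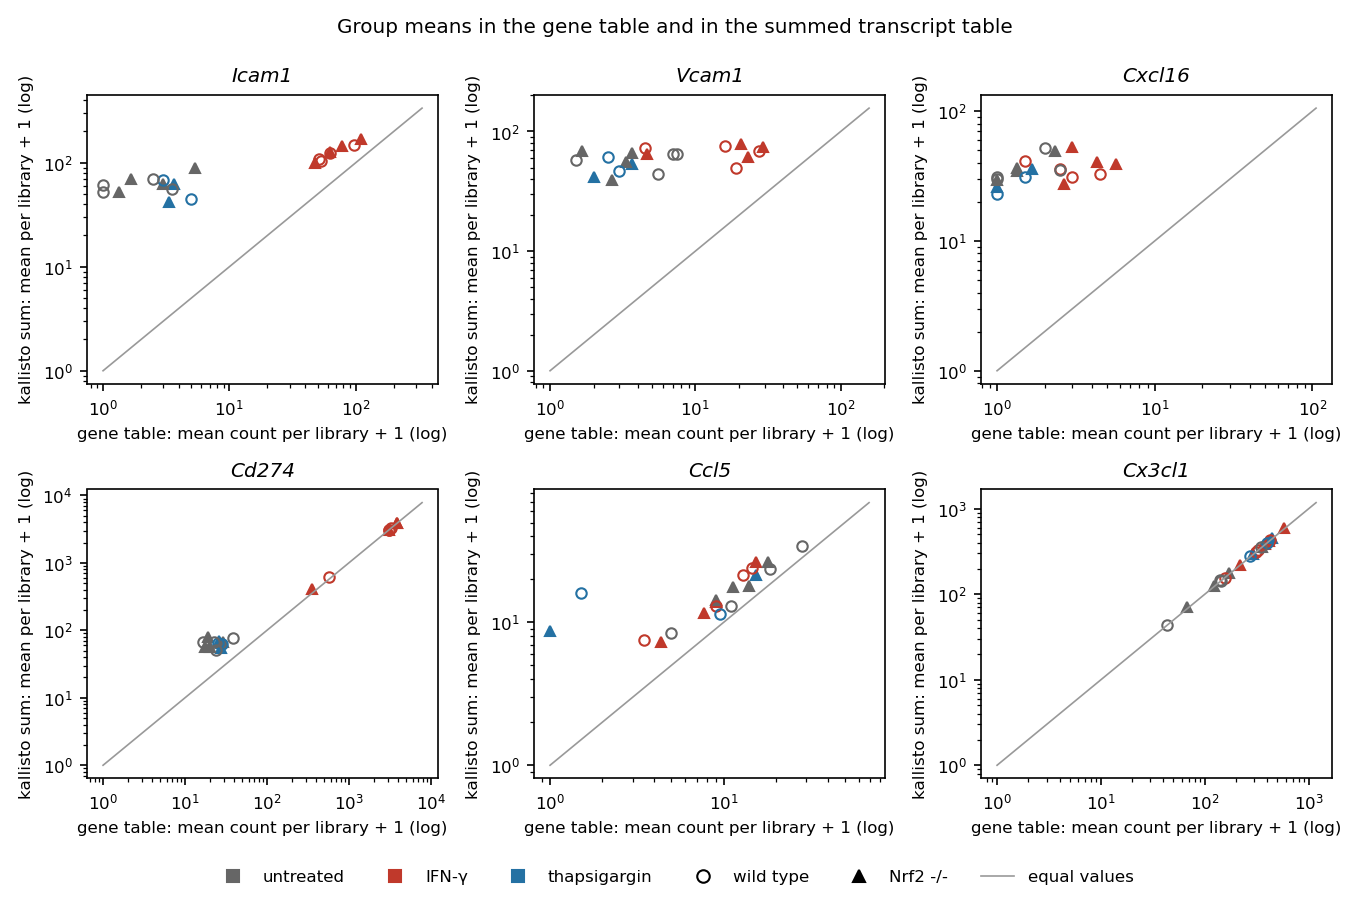
Group means per library, plus 1, in the gene table (horizontal) and in the transcript table summed per gene (vertical) for 6 genes, both axes logarithmic, with 1 point for each of the 20 groups and a line of equal values. Cx3cl1 lies on the line, Cd274 on it only with IFN-γ, and untreated Icam1 and Vcam1 and Ccl5 at 8 h of thapsigargin lie far above it.

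Other genes of the same pathways were counted from lists. Of all tested genes, 26.4% (wild type) and 30.7% (Nrf2 -/-) were called at 8 h of IFN-γ, in either direction, with a median log2 fold change of -0.02 in each. Some list genes, such as Ccl8 (at most 0.113 CPM untreated and 2.1 CPM with IFN-γ), Cxcl1 and Ido1, passed the filter only through IFN-γ groups. The list counts and medians are therefore a description and not a like comparison with those shares. Of 31 other chemokine ligands 7 were tested, and at 8 h of IFN-γ 2 rose in wild type and 4 in Nrf2 -/- cells, with none lower and a median log2 fold change of 1.31 and 1.18. Cxcl12, which guides progenitor cells, rose in wild type from 0.0776 to 0.123 CPM to 3.07 to 3.58 CPM, a log2 fold change of 4.99 ± 0.51 (edgeR adjusted p = 1.39e-10). Cxcl14 rose by 1.31 ± 0.31 (edgeR adjusted p = 0.00122). Of 23 chemokine receptors 4 were tested, with 1 higher and 1 lower in each genotype: the scavenger receptor Ackr3 rose by 2.23 ± 0.25 (edgeR adjusted p = 2.9e-09) and the decoy receptor Ackr1 fell by 1.36 ± 0.31 (edgeR adjusted p = 0.000674) in wild type. The median over the 4 was -0.46 in wild type and 0.18 in Nrf2 -/- cells.

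The integrins that bind ICAM-1 and VCAM-1 moved in both directions. Of 8, 5 were tested, with 2 higher and 1 lower in wild type (median 0.69) and 1 higher and 1 lower in Nrf2 -/- cells (median 0.05). Itga9, whose product is part of a VCAM-1 receptor, rose by 1.93 ± 0.11 (edgeR adjusted p = 5.01e-18), Itga4, the α chain of VLA-4, by 0.69 ± 0.22 (edgeR adjusted p = 0.0153), and Itgb7 fell by 2.42 ± 0.34 (edgeR adjusted p = 3.17e-07) in wild type. Of 14 other adhesion molecules 13 were in the table and 5 tested, with 1 higher and 1 lower in each genotype (medians 0.34 and -0.06). The junctional molecule Jam3 rose by 0.69 ± 0.07 (edgeR adjusted p = 3.18e-10) and its relative Jam2 fell by 0.30 ± 0.11 (edgeR adjusted p = 0.035) in wild type. Of 3 sheddases, Adam17 was lower in wild type, with -0.20 ± 0.06 (edgeR adjusted p = 0.0147), and none was called in Nrf2 -/- cells; the medians were 0.06 and -0.10.

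Of 21 other checkpoint ligands and receptors 12 were tested, with 6 higher and 1 lower in wild type and 7 higher and 1 lower in Nrf2 -/- cells (medians 0.42 and 0.42). Fgl2, a ligand of inhibitory Fc receptors, rose in wild type from 0.418 to 0.569 CPM to 35.1 to 38 CPM, a log2 fold change of 6.20 ± 0.30 (edgeR adjusted p = 1.31e-19). Tnfrsf14 (HVEM), the ligand of the inhibitory receptor BTLA, went from 2 counts to 88 over the 2 libraries. Cd47, a signal against phagocytosis, rose by 0.66 ± 0.24 (edgeR adjusted p = 0.0382). Of 7 other galectins 4 were tested and Lgals8 alone was called, higher by 1.02 ± 0.07 (edgeR adjusted p = 2.37e-15) in wild type and by 0.96 ± 0.06 (edgeR adjusted p = 1.46e-17) in Nrf2 -/- cells; the medians of the 4 were -0.31 and 0.54.

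Of 20 genes of IFN-γ signalling and NF-κB regulation, all tested, 14 rose and 1 fell in each genotype at 8 h, against the same 26.4% and 30.7% of all tested genes, with medians of 1.37 and 1.25. Irf7 went from 4 counts to 1084 in wild type (log2 fold change 8.24 ± 0.49, edgeR adjusted p = 2.26e-16). Socs1, a feedback inhibitor of JAK kinases, rose by 7.50 ± 0.50 (edgeR adjusted p = 3.56e-14) and Irf8 by 7.29 ± 0.32 (edgeR adjusted p = 1.2e-18). The receptor subunit Ifngr1 fell by 0.29 ± 0.11 on the log2 scale (edgeR adjusted p = 0.0476).

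At 8 h of thapsigargin genes of the same lists moved in both directions, and 55.5% (wild type) and 60.0% (Nrf2 -/-) of all tested genes were called. Of the other chemokine ligands tested, 3 rose in each genotype and 1 fell in Nrf2 -/- cells, while 3 of the 4 receptors fell in each. Of the 12 checkpoint genes tested, 4 rose in each genotype, and 3 fell in wild type and 4 in Nrf2 -/- cells. Of the 20 signalling genes 9 rose and 4 fell in wild type, and 8 rose and 5 fell in Nrf2 -/- cells. Lgals8 stood at 73.1 to 77.5 CPM with thapsigargin in wild type, above the 50.2 to 51.4 CPM of IFN-γ and the 25 to 25.2 CPM of untreated cells.

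The genes whose group means ran most like those of each member were found by Pearson correlation of mean log2(CPM + 0.5) over the 20 groups, which share libraries and untreated controls and are given as a description. For Cxcl10 they were Tlr3 (r = 0.993), Ciita (0.992) and Erap1 (0.992), and for Cd274 Gm12185 (0.995), Oas1b (0.995) and Gna13 (0.994). For Icam1 they were Prdm1 (0.988), Irf9 (0.972) and 9530082P21Rik (0.972), and for Vcam1 Trim12c (0.972), Uba7 (0.972) and H2-T23 (0.971). For Lgals9 they were Gbp8 (0.998), Il17rc (0.997) and 9930111J21Rik1 (0.997). Cx3cl1 ran most like Bcl2 (0.951), Nfib (0.945) and Tmem196 (0.943). Ccl5 had lower values, with Slc25a15 (0.878), Lrpap1 (0.868) and Zcchc24 (0.866).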

How the data were processed

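The 50 libraries are bulk RNA-seq of total RNA (Illumina HiSeq). Per the submitters' processing notes, the tools were STAR, featureCounts, kallisto and edgeR, with no versions. For the genome build, gene annotation and strand setting of the counting, the entry is: not given in the sources used here. The authors deposited a gene table of raw read counts and a transcript table of kallisto estimated counts. Gene symbols and coordinates come from GENCODE M21 (GRCm38), to which 38872 identifiers matched without version (34299 with it) and 184 did not, so coordinates rest on that match.

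Genotype, treatment and hour come from the labels, with the title followed where fields conflict. Replicates are numbered by accession order only. Genes were kept by filterByExpr (minimum count 10, total 15) on 20 groups. One model with a mean per group was fitted to all 50 libraries in edgeR 4.0.16 (R 4.3.3, TMM scaling, robust quasi-likelihood), with 27 contrasts and Benjamini-Hochberg adjustment over 16460 genes. Where a group had 3 or fewer counts no fitted fold is given: a group at 0 is set to 3 counts over the group, and otherwise the ratio has an exact 95% interval. DESeq2 1.42.0, other scalings, no filter, fewer groups or libraries, a term for Xist, and kallisto estimated counts, summed per gene and rounded, were alternatives. The script was tested on simulated data.

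The members and lists were chosen with earlier results of these data known. Named from other lists are genes called at 8 h of IFN-γ in wild type with mean CPM of 1 or more, at most 3 in each direction by size. For each tested member the 3 most correlated genes with mean CPM of 1 or more are named. Marker lists also covered astrocytes (10 genes, summed level 134 to 474 CPM over all libraries) and oligodendrocyte progenitors (10 genes, 3408 to 8089 CPM).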

Additional observations from a re-analysis of the deposited data

Results flagged for a closer look

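In the wild type, the response of Ccl5 to IFN-γ differed between 48 h and 8 h by 3.45 in log2, flagged because the difference between the 2 hours was itself tested and called. It was not called with kallisto counts summed per gene (2.24, edgeR adjusted p = 0.0722). Without the untreated 48 h replicate 2, which has 1 count, it was 2.66. The Cx3cl1 response differed between the same hours by -1.74 in wild type and by -1.11 in Nrf2 -/- cells, flagged for the same reason.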

How the results depend on the processing

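No paired analysis was possible because the labels carry no replicate numbers, only running library numbers. These fall into consecutive sets with a library of each treatment from the same genotype and hour, but no label says that a set shares a culture or day, and pairing by that order was not tried. Of the log2 fold changes of called genes under 10 other settings, 602 kept their direction and call, 31 lost the call and 1 reversed: Ccl5 with IFN-γ against thapsigargin at 8 h in Nrf2 -/- cells, which became -0.44 (adjusted p = 0.576) with kallisto counts summed per gene. That setting held 14 of the 31 lost calls, protein-coding transcripts only (a setting chosen after seeing the data) 8, and DESeq2, RLE scaling and a term for Xist none; the cause was not tested. Leaving out 1 library kept 322 calls and lost 16.

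The number of the 7 tested genes called moved by over 1.5 times as follows. With kallisto summed per gene it was 1 for wild-type thapsigargin at 8 h, 1 for 48 against 8 h of IFN-γ in wild type, 2 for the same in Nrf2 -/- cells, and 2 for untreated 48 against 1 h in Nrf2 -/- cells, where protein-coding transcripts only gave 3. With only the groups compared, which have fewer samples, it was 1 for IFN-γ at 1 h and 1 for thapsigargin at 8 h in Nrf2 -/- cells, 3 for 48 against 8 h and 2 for untreated 48 against 1 h there. DESeq2 gave 3 and 2 for these last comparisons. Leave-one-out ranges were 0 to 1 for wild-type thapsigargin at 1 h (1 without replicate 1 of that group), 1 to 2 for Nrf2 -/- 48 against 8 h (2 without untreated 48 h replicate 1) and 1 to 2 for Nrf2 -/- untreated 48 against 1 h (2 without untreated 48 h replicate 2). Within 1.5 times, kallisto summed per gene also lowered the IFN-γ counts from 7 to 5 at 8 h in both genotypes and at 24 h in Nrf2 -/- cells, from 6 to 5 at 24 h and from 5 to 4 at 48 h in wild type, and from 6 to 5 at 48 h in Nrf2 -/- cells, by loss of Vcam1 in all 6 and of Ccl5 in the first 3. Low counts in the gene table, at most 9, 12 and 29 in a library, limit Cxcl16, Ccl2 and Ccl5, and Cxcl16 had more in the transcript table.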
